A study of Mus musculus with 31 samples.

Results

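The effect of dexamethasone on T helper 17 (Th17) cells that also received TGF-β1 was read from 6 RNA sequencing libraries of 31 in the series. Th17Inf cells, differentiated in vitro from C57/B6 wild-type mouse T cells that came originally from spleen and dLN, were treated for 2 days. Of the libraries compared, 3 were of cells given TGF-β1 alone and 3 of cells given TGF-β1 together with dexamethasone (Dex), a synthetic glucocorticoid. The difference between these groups gives the effect of Dex in the presence of TGF-β1. Another 3 libraries of cells given Dex alone and 3 of cells with neither agent belonged to the same experiment and are used to set the effect of Dex without TGF-β1 beside it. Both compared groups thus received TGF-β1. The label Th17Inf is taken here as inflammatory Th17, and the concentrations of the agents are not given in the sources used here. Each library was made from 2000 live sorted cells. Whether the libraries of a group came from separate cultures or mice is not stated, so p-values measure the spread between libraries, which may be technical.

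Dexamethasone enters cells and binds the glucocorticoid receptor, the product of Nr3c1, which moves to the nucleus and binds DNA at glucocorticoid response elements near genes that it activates. The receptor also lowers the output of the inflammatory transcription factors AP-1 and NF-kB, which is how glucocorticoids are known to restrain cytokine genes in T cells. TGF-β1 signals through Smad proteins and, together with interleukin 6, is one of the cytokines used to make Th17 cells, which produce interleukin 17. Glucocorticoids are widely used against autoimmune inflammation, in which Th17 cells take part.

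The 6 libraries held between 2769203 and 4291149 counts in 13878 to 15027 genes. A gene without counts could still have had a level of 0.699 to 1.08 CPM in these libraries, which is 3 counts of a library's total and covers counting error only. Levels are in CPM, a library's counts scaled by its total and a TMM factor, and a group is given as mean ± SD of n = 3 libraries. A set of 15 predicted genes resembling repeats took 20.2% to 26% of the counts with TGF-β1 alone and 11.7% to 30.8% with both agents. Markers of T cells, the labelled cell type, summed to 3840 to 3980 CPM with TGF-β1 and 3690 to 3730 CPM with both, including Cd3e at 222 ± 12.9 and 245 ± 9.33 CPM and Cd4 at 256 ± 16.2 and 251 ± 9.98 CPM. Those T cell sums did not overlap (exact two-sided permutation p = 0.1, the smallest that 3 against 3 libraries can give). Markers of CD8 T and NK cells summed to 11.7 to 14.2 CPM with TGF-β1 and 19 to 31.5 CPM with both (exact permutation p = 0.1), with 5 of 13 at 0, among them the NK genes Ncr1 and Klrb1c. Another NK gene, Klrd1, was at 0, 0.867 and 0 CPM with TGF-β1 alone and 6.46, 4.2 and 0.632 CPM with both. Gzma was at 2.64, 2.89 and 2.72 CPM with TGF-β1 alone and 0.68, 13.3 and 9.3 CPM with both, so it was higher in replicates 2 and 3 only. In counts summed over each group, Prf1, Cd8a, Gzmk and Klre1 were lower with both. Markers of neutrophils, mast cells and basophils summed to 10.6 to 15.9 against 6.74 to 10.5 CPM (exact permutation p = 0.1), with 9 of 19 at 0, among them S100a8. Sums of B cell, myeloid and innate lymphoid markers overlapped between the groups, at 75.9 to 90.3, 519 to 575 and 233 to 274 CPM over the 6 libraries, with 4 of 14, 8 of 24 and 5 of 14 markers at 0. The part of these shifts in the results below was not tested, and a change in the share of a cell type cannot be told apart from a change in RNA per cell.

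Few genes passed the test when Dex was added to TGF-β1. Of 10332 genes tested, 55 (0.532%) passed an adjusted p of 0.05, of which 32 (0.31%) were higher with Dex and 23 (0.223%) were lower. Among the genes that rose were Tsc22d3, a classical glucocorticoid target, the co-stimulatory receptor gene Icos, the ferritin heavy chain gene Fth1 and the stress transcription factor gene Xbp1. Among those that fell were the cytokine gene Lta, the actin-severing protein gene Gsn, the retinoic acid binding protein gene Crabp2 and the T cell receptor adaptor gene Lat. The log2 fold changes of the 55 ran from -4.66 to 2.84, and 12 were at least 2-fold, 7 higher and 5 lower. In all 55 the libraries of one group lay entirely above those of the other, against 15.2% of all genes tested. The 55 were chosen on these same libraries, so their separation is a description and adds nothing to the calls. At an unadjusted p under 0.05 there were 1018 genes (9.85%). Other fits gave other counts: 22 from the 6 compared libraries alone, 15 with library totals alone and 94 with DESeq2. It was 24 without TGF-β1 replicate 1, 24 without TGF-β1 replicate 2, 26 without TGF-β1 replicate 3, and 31, 35 and 32 without replicates 1, 2 and 3 of the group given both. Called in each of these 6 fits were 17 genes: Ecm1, Fth1, Icos, Neb, Plaur, Prnp, Sdcbp2, Tsc22d3, Xbp1 and the predicted genes Gm26809 and Gm48942 among the higher, and Gsn, Lat, Lta, Ndfip1, Slc2a3 and Tnfsf8 among the lower. Every other call was lost in at least 1 of these 6 fits, also where that is not repeated below.

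**Figure D1:**
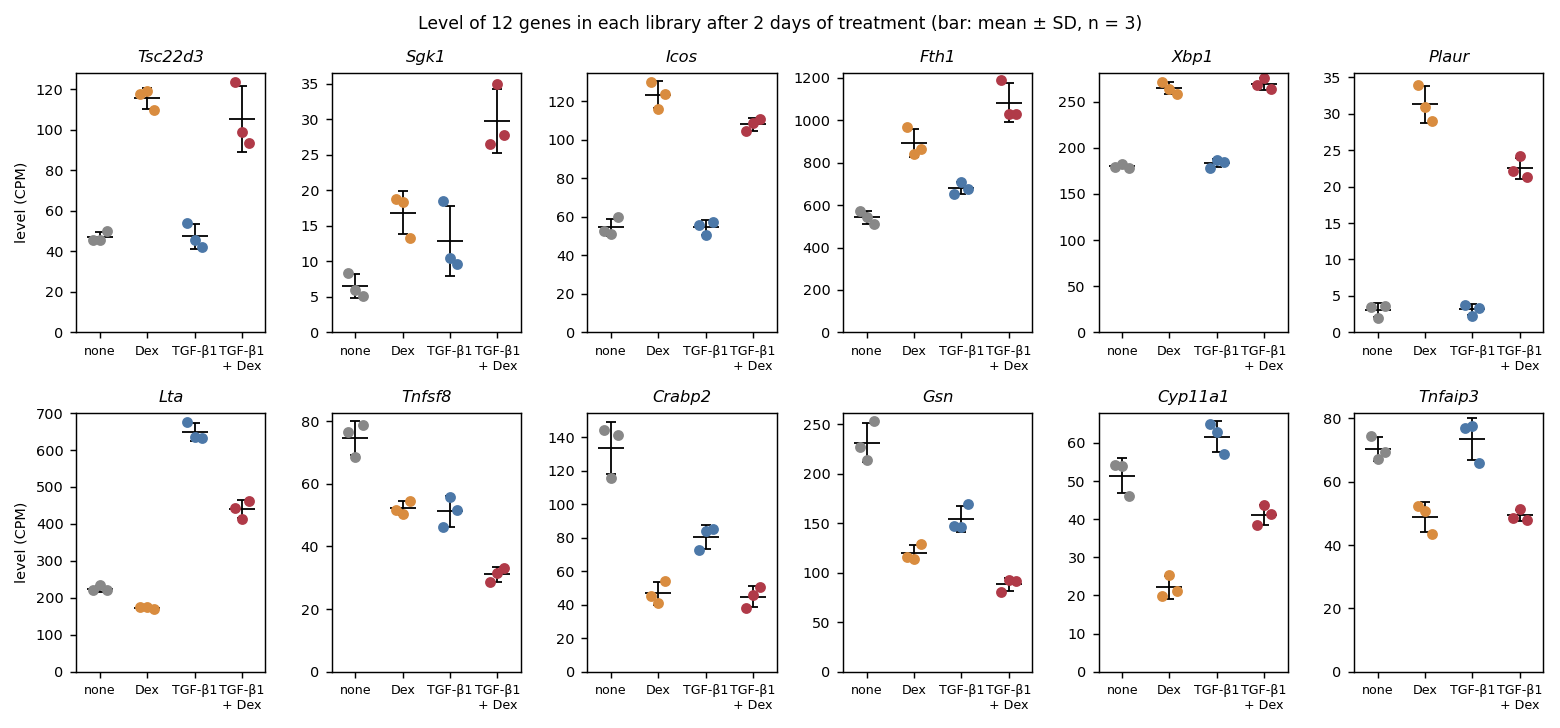
Level in CPM of 12 genes in each library after 2 days with no addition, Dex, TGF-β1 or both, with 1 point per library and bars for mean ± SD (n = 3). In every panel the 3 libraries with both agents lie apart from the 3 with TGF-β1 alone, above them in the upper row and below them in the lower row.

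The receptor gene itself, Nr3c1, was at 4.16, 2.6 and 3.33 CPM with TGF-β1 alone and 3.06, 3.5 and 4.84 CPM with both, so the groups overlapped (log2 fold change 0.23 ± 0.35, edgeR adjusted p = 0.929). Its level was a few CPM in every library. Fkbp5, which encodes a co-chaperone that holds the receptor in a state of low hormone affinity and is a well-known receptor target, was at 2.64, 5.78 and 5.75 CPM with TGF-β1 alone and 8.5, 6.3 and 6.32 CPM with both. The libraries of Fkbp5 did not overlap, yet the difference did not pass the test (log2 fold change 0.53 ± 0.29, edgeR adjusted p = 0.615). Of 15 tested genes for the receptor, its chaperones and co-regulators, 0 passed with edgeR, 0 at an unadjusted p under 0.05 (9.85% of all genes), and 0 with DESeq2 or limma voom. Their median log2 fold change was 0.0813, against -0.00382 over all genes tested. The abundant chaperone gene Hsp90ab1 was at 1673, 1720.4 and 1829 CPM with TGF-β1 and 1867, 1774 and 1884 CPM with both.

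Classical glucocorticoid-induced genes were represented by 25 tested members, of which 3 rose (Tsc22d3, Sgk1 and Mt1), 0 fell and 22 did not pass, against 0.31% of all genes called higher and 0.223% called lower. The median of the list was 0.092, with 7 members higher and 3 lower without overlap, against 7.12% and 8.03% of all genes. Tsc22d3 (chromosome X, 140539528 to 140600659 on GRCm38, as are all gene positions here) encodes GILZ, a leucine zipper protein that binds AP-1 and NF-kB. It was at 54, 45.7 and 42.4 CPM with TGF-β1 alone and 124, 99 and 93.3 CPM with both (log2 fold change 1.15 ± 0.12, edgeR adjusted p = 0.000515). Every library with Dex was at or above 93.3 CPM and every library without it at or below 54 CPM. Sgk1 (chromosome 10, 21882184 to 21999903) encodes a kinase of the insulin and salt signalling pathways. Its levels were 18.5, 10.4 and 9.68 CPM with TGF-β1 alone and 26.5, 35 and 27.8 CPM with both (log2 fold change 1.23 ± 0.24, edgeR adjusted p = 0.0449). One TGF-β1 library stood above the others of its group, but all 3 libraries with both agents were higher still, and the call was kept in 1 of the 6 fits without a library. Mt1 (chromosome 8, 94179082 to 94180327), which encodes the metal-binding protein metallothionein, was at 1191, 1125 and 1191 CPM with TGF-β1 alone and 1693, 1411 and 1588 CPM with both (log2 fold change 0.42 ± 0.073, edgeR adjusted p = 0.0213). That call too was kept in 1 of 6 such fits. Another metallothionein gene, Mt2, was at 398, 387 and 417 CPM with TGF-β1 alone and 606, 429.5 and 509.98 CPM with both and passed with DESeq2 only. Of the abundant members that did not pass, Nfkbia, the inhibitor of NF-kB, was at 621, 565 and 655 CPM with TGF-β1 alone and 531, 485 and 557 CPM with both, and Cdkn1a, a cell cycle inhibitor, at 683, 699 and 761 CPM with TGF-β1 alone and 663, 589 and 648 CPM with both. Both lay lower with Dex without overlap, with edgeR adjusted p values of 0.353 and 0.386. Tgm2, a transglutaminase, was at 285, 279.6 and 288 CPM with TGF-β1 alone and 290.4, 312 and 327 CPM with both (edgeR adjusted p = 0.631).

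Promoters of the called genes were searched for letters of the sites through which the receptor, AP-1 and NF-kB are known to bind, in the 250 bases before to 50 after each RefSeq transcript start on GRCm38.p6, on both strands. A promoter was matched for 25 of the 32 higher genes, 14 of the 23 lower genes and 7896 of the 10332 tested. The loose receptor palindrome, with arms GNACA and TGTNC spaced by 3 bases, which also takes in the strict palindrome of arms AGAACA and TGTTCT at that spacing, was found in 2 higher genes (8%), in 0 lower genes and in 0.317% of all tested genes with a promoter. The strict palindrome was found in 1 tested gene, Sgk1. The single arm AGAACA, also contained in the strict palindrome, was in 20% of higher, 14.3% of lower and 14.9% of all genes. The AP-1 letters TGANTCA were in 32%, 21.4% and 5.76%, and the NF-kB letters GGGNN followed directly by TTNCC in 4%, 14.3% and 6.46%. A gene was counted if any of its promoters matched, and there were 41 promoters for the higher genes, 20 for the lower and 10077 for all tested. Per promoter, the loose palindrome was in 4.88%, 0% and 0.268% and AGAACA in 17.1%, 10% and 12.5%. The AP-1 letters were in 22%, 15% and 4.81% of promoters, and the NF-kB letters in 4.88%, 10% and 5.49%. These shares are a description of short windows, with no test and with 14 to 25 genes in each called set. The 2 promoters with a receptor palindrome were singled out after the matches were seen and are shown with the palindrome in capitals, each as the 250 bases before the start, 5′ to 3′ on the gene's strand. They lie at chr10:21993640-21993889 (plus strand, from one of the annotated starts of Sgk1) and chr8:94178839-94179088 (plus strand).
Sgk1: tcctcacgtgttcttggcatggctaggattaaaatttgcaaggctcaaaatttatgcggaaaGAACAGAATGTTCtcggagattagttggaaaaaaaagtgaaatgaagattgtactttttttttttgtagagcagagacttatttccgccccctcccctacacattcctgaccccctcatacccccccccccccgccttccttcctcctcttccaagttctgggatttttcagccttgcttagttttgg
Mt1: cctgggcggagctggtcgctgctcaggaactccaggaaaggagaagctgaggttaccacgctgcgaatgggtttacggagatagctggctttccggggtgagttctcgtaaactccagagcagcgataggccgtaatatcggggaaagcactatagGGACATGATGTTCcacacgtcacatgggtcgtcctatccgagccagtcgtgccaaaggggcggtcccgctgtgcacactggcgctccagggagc
The first base of the match is at position -188 from the start in Sgk1 and -94 in Mt1. Prnp and Ecm1 rose and Tnfaip3 fell, and their promoters are shown because they hold AP-1 letters, and in Tnfaip3 also NF-kB letters, in capitals. They lie at chr2:131909678-131909927 (plus strand), chr3:95739570-95739819 (minus strand) and chr10:19015411-19015660 (minus strand).
Prnp: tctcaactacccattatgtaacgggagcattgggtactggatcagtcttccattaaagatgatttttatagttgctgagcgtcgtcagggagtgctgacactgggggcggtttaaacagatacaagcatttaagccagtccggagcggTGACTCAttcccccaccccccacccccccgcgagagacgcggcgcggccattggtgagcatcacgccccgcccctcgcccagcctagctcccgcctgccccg
Ecm1: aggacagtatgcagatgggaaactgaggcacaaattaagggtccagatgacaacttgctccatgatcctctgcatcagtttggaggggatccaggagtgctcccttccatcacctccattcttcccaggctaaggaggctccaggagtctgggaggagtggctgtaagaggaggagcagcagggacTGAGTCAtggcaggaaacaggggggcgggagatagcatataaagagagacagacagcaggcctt
Tnfaip3: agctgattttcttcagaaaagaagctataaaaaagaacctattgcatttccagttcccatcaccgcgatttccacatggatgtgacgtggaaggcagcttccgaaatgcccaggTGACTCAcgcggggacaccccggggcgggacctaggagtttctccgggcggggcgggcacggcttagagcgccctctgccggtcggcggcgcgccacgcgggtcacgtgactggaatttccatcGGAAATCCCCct
The AP-1 letters begin at -102 in Prnp, -64 in Ecm1 and -136 in Tnfaip3, so they occur before genes of both directions.

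Surface receptors of T cell co-stimulation were among the genes that rose. Of 20 tested co-stimulatory and co-inhibitory receptors, 2 passed and both were higher (Icos and Cd226), against 0.31% of all genes called higher. The list's median was -0.19. Icos (chromosome 1, 60977927 to 61000320), a member of the CD28 family that supports helper T cell function, was at 55.5, 50.3 and 57.5 CPM with TGF-β1 alone and 104, 109 and 111 CPM with both (log2 fold change 0.99 ± 0.086, edgeR adjusted p = 0.000235). The spread within each group was a few CPM, and the levels with both agents were close together. Cd226 encodes DNAM-1, an activating receptor that competes with TIGIT for ligand. It was at 12.1, 10.1 and 10.3 CPM with TGF-β1 alone and 20.1, 19.6 and 19.8 CPM with both (log2 fold change 0.88 ± 0.15, edgeR adjusted p = 0.0213), a call kept in 0 of the 6 fits without a library. Uncalled members stood on both sides. Cd200 was at 549, 578 and 542 CPM with TGF-β1 alone and 410.5, 396 and 477 CPM with both, the negative regulator Cd5 at 284, 286 and 303 CPM with TGF-β1 alone and 231, 230.2 and 258 CPM with both and its relative Cd6 at 240.3, 234 and 239 CPM with TGF-β1 alone and 182, 194 and 204 CPM with both. These 3 lay lower with Dex without overlap, at edgeR adjusted p values of 0.0667, 0.0841 and 0.0667, and all 3 passed with DESeq2. Ctla4 was at 188, 166 and 186 CPM with TGF-β1 alone and 187, 151 and 201 CPM with both (edgeR adjusted p = 1). Over the list, 7 members lay higher without overlap and 7 lower, against 7.12% and 8.03% of all genes.

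Receptors of migration gave 1 called member of 14 tested, which rose, against 0.31% of all genes called higher. Gpr18, a receptor for lipid mediators that overlaps Ubac2 in the annotation, rose from 40 ± 3.97 to 65.7 ± 8.15 CPM (log2 fold change 0.71 ± 0.12, edgeR adjusted p = 0.0145). Ccr6, the chemokine receptor that marks Th17 cells, was at 61.6, 46 and 62.3 CPM with TGF-β1 alone and 89.4, 81.5 and 98.3 CPM with both. All 3 libraries with Dex were above all 3 without it, and the difference did not pass (log2 fold change 0.67 ± 0.17, edgeR adjusted p = 0.139). Ccr7, which guides T cells to lymph nodes, was at 970.5, 1037 and 1012 CPM with TGF-β1 alone and 1026, 1017 and 1052 CPM with both (edgeR adjusted p = 0.911). Ccr4 was at 202, 178 and 203 CPM with TGF-β1 alone and 159.8, 156 and 176 CPM with both (edgeR adjusted p = 0.371).

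Fth1 (chromosome 19, 9980598 to 9985098), the heavy chain of the iron store ferritin, was at 652, 710.3 and 677 CPM with TGF-β1 alone and 1188, 1028 and 1032 CPM with both (log2 fold change 0.67 ± 0.072, edgeR adjusted p = 0.000763). The light chain gene Ftl1 was at 946, 944 and 956 CPM with TGF-β1 alone and 991, 901 and 894 CPM with both (edgeR adjusted p = 0.94). Fth1 has pseudogene copies among which reads could be split, so its value carries that uncertainty. Of 12 tested genes of iron and metal handling, 2 rose (Fth1 and Mt1) and 0 fell, against 0.31% and 0.223% of all genes. The median was 0.186, and Mt1 is also counted in the list of glucocorticoid-induced genes. Slc39a8 (chromosome 3, 135825279 to 135888572), a zinc and manganese importer, rose from 13.3 ± 1.55 to 24 ± 1.06 CPM (log2 fold change 0.85 ± 0.16, edgeR adjusted p = 0.0396), a call kept in 0 of the 6 fits without a library. Ecm1 (chromosome 3, 95734147 to 95739569), a secreted extracellular matrix protein, was at 425, 365 and 339 CPM with TGF-β1 alone and 644, 611 and 594 CPM with both (log2 fold change 0.71 ± 0.097, edgeR adjusted p = 0.00507). Ctla2a (chromosome 13, 60934155 to 60936625), an inhibitor of cathepsin-type proteases, was at 839, 790.1 and 812 CPM with TGF-β1 alone and 1309, 1182 and 1052 CPM with both (log2 fold change 0.54 ± 0.079, edgeR adjusted p = 0.00846). It passed in 5 of the 6 fits without a library. The near-identical copy Ctla2b was at 28.7, 53.2 and 37.2 CPM with TGF-β1 alone and 72.4, 61.9 and 53.3 CPM with both (edgeR adjusted p = 0.496), and reads could be split between the copies. Among 18 tested protease inhibitors and cathepsins, Ctla2a was the 1 that passed, against 0.31% of all genes called higher.

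Xbp1 (chromosome 11, 5520659 to 5525893), the transcription factor of the unfolded protein response, was at 179, 187 and 185 CPM with TGF-β1 alone and 268, 276 and 264 CPM with both (log2 fold change 0.55 ± 0.050, edgeR adjusted p = 0.000235). Its groups were each tight, with an SD of 4.3 and 6.14 CPM. The other members of the amino acid and stress response list did not pass: 1 of 27 rose and 0 fell, against 0.31% and 0.223% of all genes. Hspa5, the main chaperone of the endoplasmic reticulum, was at 181, 162 and 169.8 CPM with TGF-β1 alone and 146, 181 and 164 CPM with both (edgeR adjusted p = 0.926), and Atf4 at 129.6, 120.3 and 118 CPM with TGF-β1 alone and 127, 115 and 125 CPM with both (edgeR adjusted p = 1).

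Signalling genes that rose included Ptpn1, a tyrosine phosphatase of cytokine and insulin receptors, from 87.1 ± 7.09 to 131 ± 11.2 CPM (log2 fold change 0.59 ± 0.091, edgeR adjusted p = 0.0118). Pik3cg, the catalytic subunit of a phosphoinositide kinase used by chemokine receptors, rose from 16.5 ± 1.18 to 29.8 ± 4.82 CPM (log2 fold change 0.88 ± 0.15, edgeR adjusted p = 0.0198), a call kept in 2 of the 6 fits without a library. The G protein subunit gene Gng2 rose from 62.9 ± 6.9 to 102 ± 2.47 CPM (log2 fold change 0.70 ± 0.12, edgeR adjusted p = 0.0213), and this call was lost in all 6 fits without a library. Socs2, a feedback inhibitor of cytokine signalling, was at 131, 133 and 133 CPM with TGF-β1 alone and 166, 184 and 166 CPM with both (log2 fold change 0.38 ± 0.069, edgeR adjusted p = 0.0302), also lost in all 6. Prnp, which encodes the prion protein of the cell surface, was at 60.1, 64.5 and 63.3 CPM with TGF-β1 alone and 112, 91.3 and 100.02 CPM with both (log2 fold change 0.69 ± 0.088, edgeR adjusted p = 0.00335). Sdcbp2, a syndecan-binding scaffold protein, rose from 89.9 ± 4.8 to 138 ± 9.16 CPM (edgeR adjusted p = 0.00732). Crybg1, which overlaps Rtn4ip1, rose from 17.4 ± 1.41 to 26.7 ± 1.07 CPM (edgeR adjusted p = 0.033), a call also kept in 0 of the 6 fits and lost with DESeq2 (adjusted p = 0.202). Tmem209 rose from 35.4 ± 1.65 to 53.6 ± 1.79 CPM (edgeR adjusted p = 0.0151), a call kept in 2 of the 6 fits.

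The largest increases were in genes of low level, which lie outside the rule for named genes and were picked out once their values were known. Plaur (chromosome 7, 24462484 to 24475968), the receptor of urokinase plasminogen activator, was at 3.78, 2.31 and 3.33 CPM with TGF-β1 alone and 22.1, 24.1 and 21.3 CPM with both. These CPM values rest on 10, 8 and 11 counts with TGF-β1 and 65, 69 and 101 counts with both (log2 fold change 2.84 ± 0.22, edgeR adjusted p = 9.89e-05). Plaur had the smallest adjusted p of all genes tested. Neb, the giant filament protein of skeletal muscle, was at 5.67, 5.2 and 4.54 CPM with TGF-β1 alone and 20.4, 17.5 and 18.5 CPM with both (log2 fold change 1.87 ± 0.19, edgeR adjusted p = 0.000515). Sv2c, a synaptic vesicle protein gene that overlaps Gm20075, was at 3.02, 1.45 and 2.12 CPM with TGF-β1 alone and 4.08, 8.74 and 9.69 CPM with both (log2 fold change 1.83 ± 0.34, edgeR adjusted p = 0.0366). Its lowest library with Dex held 12 counts, so the fold is loosely determined. Ncoa7, which overlaps Hint3, and Thada also rose, from 9.39 ± 1.86 to 21.6 ± 5.21 CPM and from 9.29 ± 0.968 to 16.9 ± 2.85 CPM, with edgeR adjusted p values of 0.0423 and 0.0413. The calls of Sv2c, Ncoa7 and Thada were each kept in 1 of the 6 fits without a library. Other higher genes outside the rule were Gm5122, Gm48942, Gm26809, Itpripl1, Atxn10, Cndp2, Rpl35 and Ahcy. Rpl35, which overlaps Arpc5l and has pseudogene copies, was at 170.4, 208 and 208 CPM with TGF-β1 alone and 256, 272 and 271 CPM with both (edgeR adjusted p = 0.0396), a call kept in 0 of the 6 fits without a library, as were those of Atxn10 and Itpripl1.

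**Figure D2:**
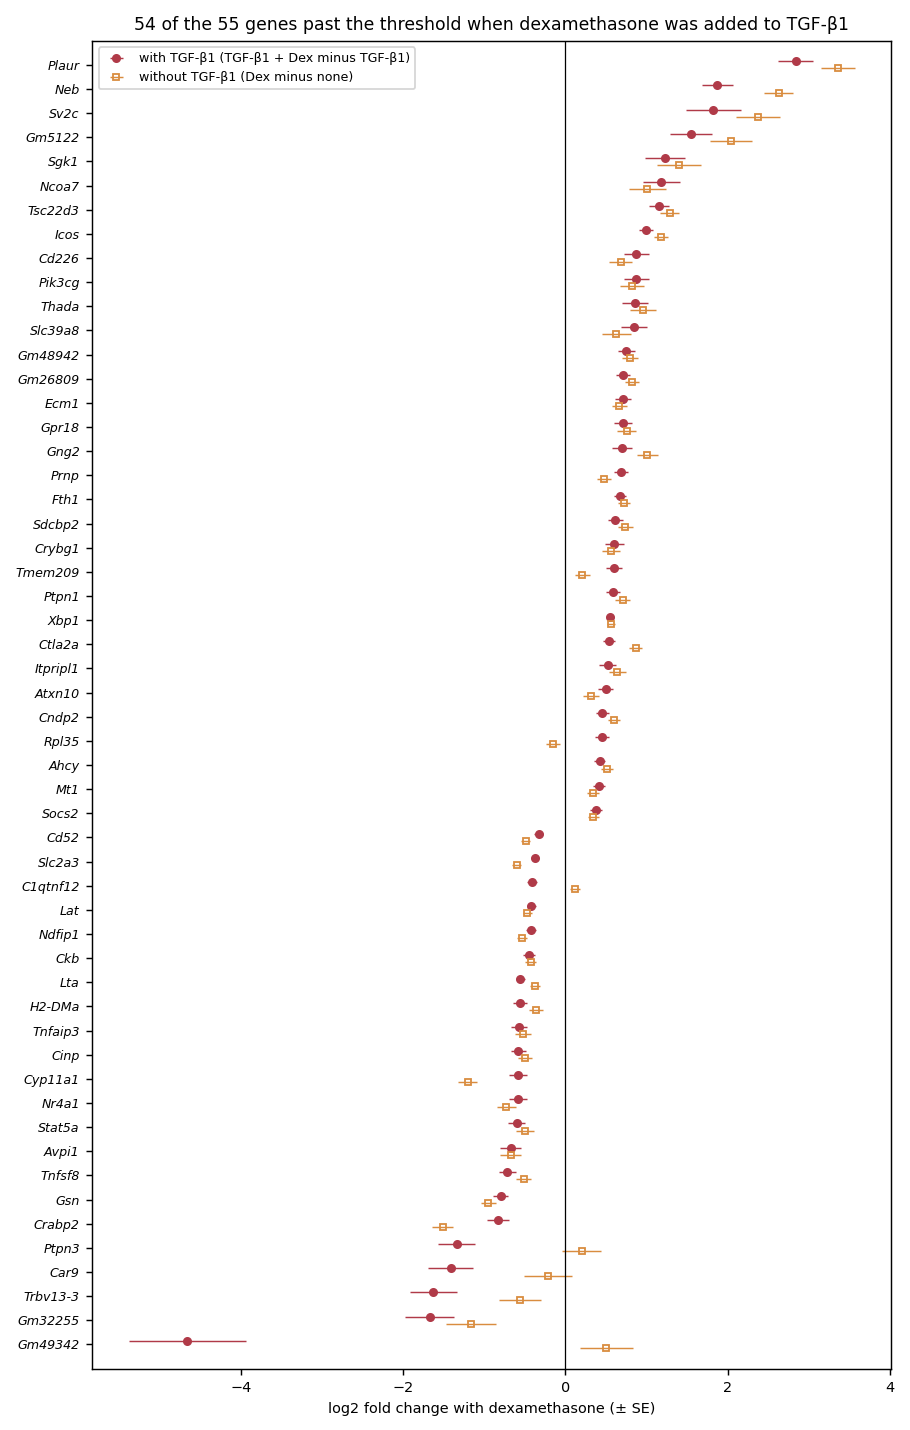
Log2 fold change with Dex of 54 of the 55 called genes, ± SE, in the presence of TGF-β1 (filled circles) and in its absence (open squares, from the other 6 libraries), both estimated in 1 fit over 12 libraries with a shared estimate of the spread. The genes were chosen on the filled circles, and 50 of the open squares lie on the same side of 0.

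Of 31 tested effector cytokine genes, 2 fell (Lta and Tnfsf8), 0 rose and 29 did not pass, against 0.223% of all genes called lower. The median log2 fold change was -0.35, and 6 of 31 were above 0, against 5096 of the 10332 genes tested. Without overlap of the libraries, 13 lay lower, against 8.03% of all genes. At an unadjusted p under 0.05 there were 15 of the 31, against 9.85% of all genes. Lta (chromosome 17, 35203165 to 35205351), which encodes lymphotoxin alpha, a TNF-like cytokine of lymphoid tissue, was at 676, 635 and 633 CPM with TGF-β1 alone and 444, 413 and 463 CPM with both (log2 fold change -0.56 ± 0.055, edgeR adjusted p = 0.000466). The lowest TGF-β1 library was well above the highest with both. Tnfsf8 (chromosome 4, 63831308 to 63861347), the ligand of CD30, was at 46.1, 55.8 and 51.8 CPM with TGF-β1 alone and 28.6, 31.5 and 33.1 CPM with both (log2 fold change -0.72 ± 0.10, edgeR adjusted p = 0.0083). Abundant cytokine genes that did not pass were Il24, at 736, 783 and 797 CPM with TGF-β1 alone and 568, 468 and 607 CPM with both, and Il21, a Th17 cytokine, at 194, 172 and 211 CPM with TGF-β1 alone and 147, 148 and 158 CPM with both. Their libraries did not overlap, and the edgeR adjusted p values were 0.0667 and 0.257. Il9, a cytokine of helper T cells, overlapped between groups at 377, 171 and 353 CPM with TGF-β1 alone and 206, 132 and 172 CPM with both (edgeR adjusted p = 0.445). Mif and Ltb were at 3171 ± 148 against 3139.8 ± 90.1 CPM and 375 ± 15.9 against 364 ± 25.1 CPM.

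Other cytokine genes were picked out once their values were known, for the size of the difference. Il13, a Th2 cytokine, was at 3.78, 2.31 and 7.26 CPM with TGF-β1 alone and 0.34, 0.35 and 1.05 CPM with both (edgeR adjusted p = 0.0735), a few counts a library. Il3 was at 16.6, 11.9 and 10.9 CPM with TGF-β1 alone and 6.12, 0 and 2.32 CPM with both (edgeR adjusted p = 0.126). Tnf was at 63.8, 63 and 67.2 CPM with TGF-β1 alone and 49, 33.2 and 47.6 CPM with both (edgeR adjusted p = 0.231). Il3, Il13 and Il24 passed with DESeq2 in addition to Lta and Tnfsf8. In the opposite direction, Tgfb3, a TGF-β family ligand, was at 13.2, 13.3 and 8.47 CPM with TGF-β1 alone and 21.4, 22.4 and 23.4 CPM with both and Nfkbiz, an atypical NF-kB inhibitor that Th17 cells use, at 6.42, 9.83 and 9.99 CPM with TGF-β1 alone and 15.6, 18.5 and 29.3 CPM with both. Neither passed, at edgeR adjusted p values of 0.0843 and 0.0893, and Nfkbiz passed with DESeq2.

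Chemokine ligands had 5 tested members, of which 0 passed with edgeR and 3 had an unadjusted p under 0.05, against 9.85% of all genes. Their median was -1.38, and 4 of these few members lay lower without overlap, against 8.03% of all genes. For Dex without TGF-β1 the median of the list was 0.458, with 1 member called higher, against 0.919% of all genes. Ccl5, singled out after its values were seen, was at 33.6, 53.8 and 43.3 CPM with TGF-β1 alone and 20.4, 13.6 and 22.7 CPM with both (edgeR adjusted p = 0.126), and it was the 1 member that passed with DESeq2. With limma voom 0 passed. The cytotoxic protease gene Gzmb was at 159, 309 and 180.4 CPM with TGF-β1 alone and 68.7, 124 and 108 CPM with both (edgeR adjusted p = 0.132), and it passed with DESeq2. CD8 T and NK cells also make Ccl5 and Gzmb, and their summed markers, at 11.7 to 14.2 CPM with TGF-β1 and 19 to 31.5 CPM with both, rest on few counts. Their part in these values was not tested.

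Immediate-early and NF-kB genes gave 1 call each. Of 21 tested AP-1 and immediate-early factors, 1 fell, 0 rose, against 0.223% and 0.31% of all genes, and the median was -0.141. Nr4a1 (chromosome 15, 101254269 to 101274795), a nuclear receptor induced by T cell receptor signals, was at 52.1, 59 and 59.6 CPM with TGF-β1 alone and 37.8, 35.7 and 40 CPM with both (log2 fold change -0.59 ± 0.11, edgeR adjusted p = 0.0423), a call kept in 0 of the 6 fits without a library. Junb, an AP-1 subunit, was at 641, 549.6 and 662 CPM with TGF-β1 alone and 592, 510.3 and 629.8 CPM with both (edgeR adjusted p = 0.843). Batf, an AP-1 factor needed for Th17 cells, was at 145, 133 and 169.8 CPM with TGF-β1 alone and 123, 113 and 147 CPM with both (edgeR adjusted p = 0.527), and Batf3 at 203, 151 and 209.7 CPM with TGF-β1 alone and 236, 214 and 262 CPM with both (edgeR adjusted p = 0.328). Of 26 tested NF-kB subunits, inhibitors and targets, 1 fell and 0 rose, against 0.223% and 0.31% of all genes. The median was -0.153, with 9 members lower and 3 higher without overlap, against 8.03% and 7.12% of all genes. Tnfaip3 (chromosome 10, 19000910 to 19015657) encodes A20, the deubiquitinase that shuts off NF-kB signalling and is itself an NF-kB target. It was at 77.1, 77.5 and 66 CPM with TGF-β1 alone and 48.6, 51.4 and 48 CPM with both (log2 fold change -0.58 ± 0.098, edgeR adjusted p = 0.0198), kept in 1 of the 6 fits. The subunit gene Nfkb2 was at 149.6, 150.04 and 158 CPM with TGF-β1 alone and 124, 131 and 143 CPM with both (edgeR adjusted p = 0.358). Tnip2, a partner of A20, was at 124, 129 and 137 CPM with TGF-β1 alone and 177, 161 and 186 CPM with both (edgeR adjusted p = 0.053), higher in all 3 libraries, and passed with DESeq2.

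Among genes of T cell receptor signalling, 2 of 33 tested fell, among them Lat, and 0 rose, against 0.223% and 0.31% of all genes. The median was -0.00904. Lat (chromosome 7, 126363824 to 126369570), the membrane adaptor on which the signalling complex assembles, was at 267, 271 and 279 CPM with TGF-β1 alone and 193, 204 and 213 CPM with both (log2 fold change -0.42 ± 0.056, edgeR adjusted p = 0.00469). Lat belongs also to the T cell markers, whose sum was lower with Dex. The receptor chains themselves did not pass: Cd3g was at 234, 239 and 231 CPM with TGF-β1 alone and 274, 254 and 248 CPM with both (edgeR adjusted p = 0.63). Lck, the first kinase of the pathway, was at 433, 398 and 432 CPM with TGF-β1 alone and 399, 377 and 399.9 CPM with both (edgeR adjusted p = 0.614).

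Cytokine signalling genes gave 1 higher (Socs2) and 1 lower (Stat5a) of 24 tested, against 0.31% and 0.223% of all genes. Stat5a (chromosome 11, 100859351 to 100885169), a transcription factor downstream of interleukin 2, was at 279, 253 and 271 CPM with TGF-β1 alone and 179, 151 and 197 CPM with both (log2 fold change -0.60 ± 0.11, edgeR adjusted p = 0.0213), kept in 1 of the 6 fits without a library. It overlaps Stat3 in the annotation, and Stat3 was at 244, 259 and 253 CPM with TGF-β1 alone and 245, 249 and 279 CPM with both (edgeR adjusted p = 0.941). The interleukin 2 receptor chains Il2ra and Il2rb did not pass, at 460.1 ± 17.6 against 439.8 ± 35.1 CPM and 335 ± 5.15 against 334 ± 11.2 CPM.

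Crabp2 (chromosome 3, 87948666 to 87953376), which carries retinoic acid to its receptor, fell from 72.5, 83.8 and 85 CPM to 38.1, 45.8 and 50.5 CPM (log2 fold change -0.84 ± 0.13, edgeR adjusted p = 0.0145). The Crabp2 call was kept in 2 of the 6 fits without a library. Gsn (chromosome 2, 35256380 to 35307892), gelsolin, which cuts actin filaments, was at 147, 146 and 169 CPM with TGF-β1 alone and 80.9, 93 and 91.4 CPM with both (log2 fold change -0.80 ± 0.091, edgeR adjusted p = 0.00131). The highest Gsn library with Dex, at 93 CPM, was far below the lowest without, at 146 CPM. Cyp11a1 (chromosome 9, 58006411 to 58027023), the mitochondrial enzyme that makes pregnenolone from cholesterol and so starts steroid synthesis, was at 65, 62.7 and 57.2 CPM with TGF-β1 alone and 38.4, 43.7 and 41.3 CPM with both (log2 fold change -0.58 ± 0.11, edgeR adjusted p = 0.0396). The groups were separate, but the call was lost in all 6 fits without a library. Cyp11a1 was the 1 called gene of 13 tested in the list of homeostatic Th17 genes, against 0.223% of all genes called lower. Slc2a3 (chromosome 6, 122727809 to 122801640), a glucose transporter, fell from 372 ± 6.72 to 287 ± 13.8 CPM (log2 fold change -0.37 ± 0.053, edgeR adjusted p = 0.00676). It was the 1 called member of 26 tested genes of glycolysis and hypoxia, against 0.223% of all genes called lower. In that list Gapdh was at 10116, 10033 and 10380.5 CPM and 10649, 9395 and 10736 CPM and Ldha at 4523, 4109 and 4408 CPM and 4457, 4253 and 4511 CPM.

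The remaining lower genes of the rule were of varied function. Avpi1 fell from 129 ± 18.6 to 80.2 ± 7.16 CPM (log2 fold change -0.68 ± 0.13, edgeR adjusted p = 0.033) and Cinp, a gene of DNA replication, from 76.2 ± 4.17 to 51 ± 5.71 CPM (log2 fold change -0.58 ± 0.091, edgeR adjusted p = 0.0123). Their calls were kept in 1 and 2 of the 6 fits without a library. H2-DMa, which loads peptides on MHC class II and overlaps Brd2, fell from 90.2 ± 7.74 to 61.2 ± 1.48 CPM (edgeR adjusted p = 0.0101). The creatine kinase gene Ckb fell from 468 ± 32.3 to 343 ± 14.3 CPM (edgeR adjusted p = 0.0145), and Ndfip1, an adaptor of ubiquitin ligases that restrains T cell activation, from 289.9 ± 19.2 to 216 ± 13.3 CPM (edgeR adjusted p = 0.00989). C1qtnf12, a secreted C1q-like protein, was at 181, 188 and 185 CPM with TGF-β1 alone and 140.1, 133 and 141 CPM with both (log2 fold change -0.42 ± 0.062, edgeR adjusted p = 0.00958). Lower genes outside the rule, likewise named with their values known, were Gm49342, Gm32255, Trbv13-3, Car9, Ptpn3 and Cd52. Cd52, an abundant surface glycoprotein gene that overlaps Crybg2, fell from 661 ± 9.82 to 527 ± 26.4 CPM (edgeR adjusted p = 0.0198), a call kept in 0 of the 6 fits without a library. Ptpn3, a tyrosine phosphatase, was at 12.1, 13.9 and 11.5 CPM with TGF-β1 alone and 3.4, 4.55 and 6.32 CPM with both (log2 fold change -1.34 ± 0.23, edgeR adjusted p = 0.0198), a call kept in 1 of the 6. Car9, a carbonic anhydrase overlapping Gm12454, was at 7.18, 11 and 7.26 CPM with TGF-β1 alone and 3.06, 2.45 and 3.79 CPM with both (log2 fold change -1.42 ± 0.28, edgeR adjusted p = 0.0423), and this call was kept in 0 of the 6. The predicted gene Gm49342, which overlaps Pnp, had 7, 9 and 15 counts with TGF-β1 and 0, 0 and 1 with both, so its fitted log2 fold change of -4.66 depends on a handful of reads.

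Of 17 tested members of the Th17 identity list, 0 passed with edgeR, DESeq2 or limma voom, 4 had an unadjusted p under 0.05 (9.85% of all genes), and the median was 0.0145. Of the 23 listed, 6 had too few counts to be tested. Among these was the Th17 cytokine gene Il22, at 27, 9 and 14 counts with TGF-β1 alone and 0, 1 and 8 counts with both. Il17a was at 63.5, 16.5 and 58.4 CPM with TGF-β1 alone and 26.2, 27.3 and 39.2 CPM with both (edgeR adjusted p = 0.82), with 1 low library in the TGF-β1 group. Il17f was at 70.6, 32.7 and 65.1 CPM with TGF-β1 alone and 74.1, 39.5 and 55.8 CPM with both (edgeR adjusted p = 1), and its sign changed in the fits without TGF-β1 replicate 2 (-0.25) and without replicate 1 of the group given both (-0.21). Both genes were present in every library, and at this spread no difference could be detected. The regulatory genes Foxp3 and Il10 also had too few counts. Foxp3 had 0, 3 and 0 counts with TGF-β1 and 5, 2 and 4 with both. Il10 had 3, 1 and 2 counts with TGF-β1 and 5, 10 and 8 with both. The regulatory T cell list had 18 tested members, of which Socs2 rose, against 0.31% of all genes called higher. Its member Tnfrsf18 (GITR) was at 849 ± 27.1 against 820.3 ± 18.3 CPM (edgeR adjusted p = 0.897).

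Lists of other T helper programs had 0 called members with edgeR. The counts at an unadjusted p under 0.05 that follow stand against 9.85% of all genes tested, and those above 0 against 5096 of 10332. Of 14 tested inflammatory Th17 genes, 2 were above 0, 6 had an unadjusted p under 0.05 and the median was -0.405. DESeq2 called 2 of them, Gzmb and Ccl5, and limma voom 0. Of 17 tested Th1 genes, 2 were above 0, 6 had an unadjusted p under 0.05 and the median was -0.42, with Ccl5 alone called by DESeq2 and 0 by limma voom. These lists share members, Ccl3, Ccl4 and Ccl5 among them. Of 12 tested Th2 genes, 1 was above 0, 6 had an unadjusted p under 0.05 and the median was -0.278. DESeq2 called Il13 and Ccr8, and limma voom 0. For Dex without TGF-β1 the medians of the inflammatory Th17, Th1 and Th2 lists were -0.223, -0.0384 and -0.552. Il4ra, the receptor for interleukin 4, was at 252 ± 17.8 against 242 ± 19.8 CPM. Of 23 tested TGF-β receptors, Smads and targets, 0 passed with edgeR, 4 had an unadjusted p under 0.05 (9.85% of all genes) and the median was -0.0213, with 7 members lower and 1 higher without overlap, against 8.03% and 7.12% of all genes. Ccr8, held also by this list, passed with DESeq2, and 0 with limma voom.

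**Figure D3:**
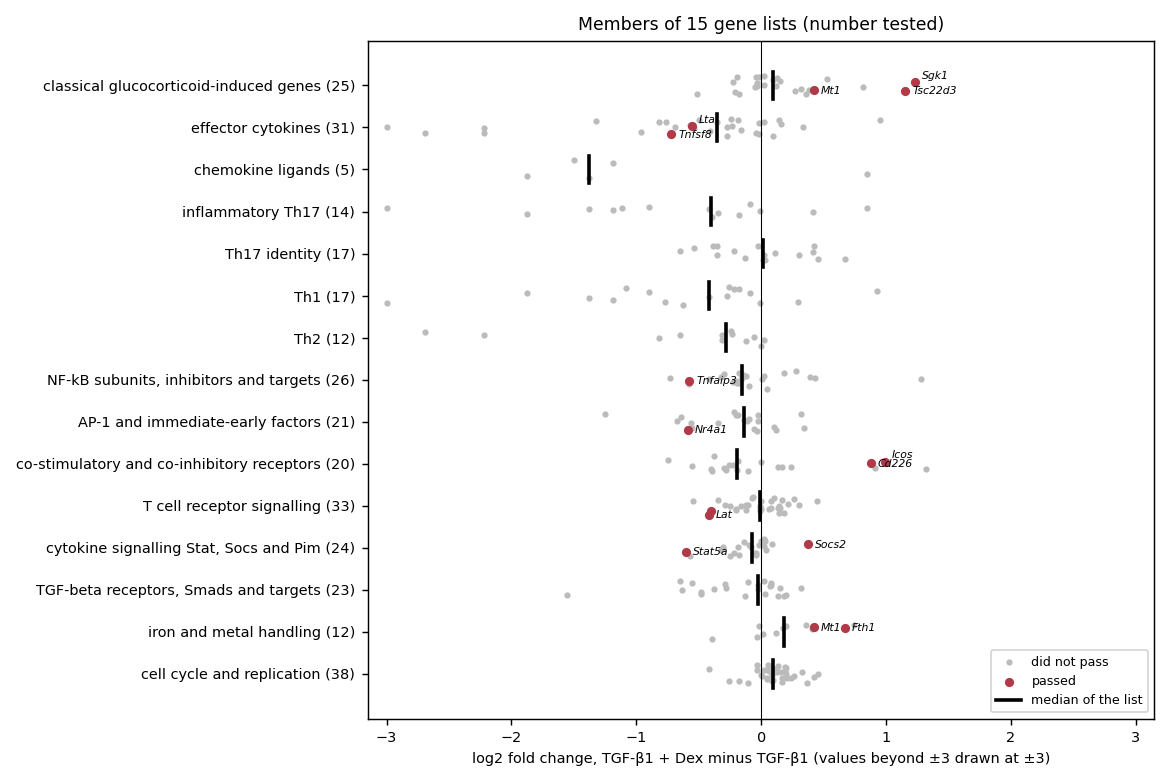
Log2 fold change of each tested member of 15 gene lists when Dex was added to TGF-β1, with called genes in red and most of them named, uncalled genes in grey, and a black bar at the median of each list. The 3 values beyond -3 or 3 are drawn at the limit, and lists share some members. The lowest bars are those of the chemokine, Th1, inflammatory Th17 and cytokine lists, where 2 members of the cytokine list passed and 0 of the other 3 lists. Bars of the Th2, co-stimulatory, NF-kB, AP-1, cytokine signalling, TGF-β and T cell receptor lists lie below 0 too.

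Housekeeping and metabolic programs had medians between -0.0912 and 0.0932. Of 38 tested cell cycle and replication genes, 0 passed with edgeR, 8 had an unadjusted p under 0.05 (9.85% of all genes) and the median was 0.0932. Of these 38, 31 were above 0, against 5096 of the 10332 genes tested. Ccnd3, a D cyclin, was at 465, 492 and 465 CPM with TGF-β1 alone and 394, 387 and 407 CPM with both (edgeR adjusted p = 0.0598), and was the 1 member called by DESeq2, with 0 by limma voom. Of 34 tested genes of oxidative phosphorylation the median was -0.0537, and Cox4i1 was at 648 ± 34.2 against 676 ± 56.9 CPM. Of 27 tested genes of cholesterol synthesis and export the median was -0.0695, and Fdps was at 401 ± 40 against 404 ± 23.8 CPM. Of 28 tested interferon response genes the median was -0.0912, and Irf8 was at 254, 332 and 279.6 CPM with TGF-β1 alone and 196, 235 and 226 CPM with both (edgeR adjusted p = 0.243). Of 23 tested genes of the Bcl2 family and apoptosis the median was 0.0454, and Bcl2l1, which encodes the survival factor Bcl-xL, was at 154, 141 and 156 CPM with TGF-β1 alone and 109.5, 118 and 132 CPM with both (edgeR adjusted p = 0.151). In these last 4 lists, 0 genes passed with edgeR, DESeq2 or limma voom, and 2, 2, 5 and 6 had an unadjusted p under 0.05.

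The effect of Dex without TGF-β1, taken from the other 6 libraries of the experiment, called 189 genes (1.83%), 95 higher (0.919%) and 94 lower (0.91%). Without 1 library this count was 78 to 129, and it was 55 with library totals alone. The fold changes of the comparisons share no library, but both lists of calls come from 1 fit with a shared estimate of the spread. Of the 55 genes called with TGF-β1, 44 were called without it too, all in the same direction (28 higher and 16 lower), which is 80% of the 55 and 23.3% of the 189. With each comparison fitted on its own 6 libraries, 22 genes were called with TGF-β1 and 127 without it, and 19 were called in both, all in the same direction, which is 86.4% of the 22 and 15% of the 127. By sign alone, 51 of the 55 had the same sign in both. Over all genes tested, 60.6% had the same sign in both. Examples of close values were Xbp1, at 0.55 ± 0.050 with TGF-β1 and 0.56 ± 0.050 without, Avpi1, at -0.68 ± 0.13 and -0.68 ± 0.13, and Fth1, at 0.67 ± 0.072 and 0.72 ± 0.072 on the log2 scale. Tsc22d3 was at 1.15 ± 0.12 and 1.29 ± 0.12. For these 4 genes the 95% intervals of the difference ran from -0.16 to 0.15, -0.30 to 0.31, -0.27 to 0.17 and -0.49 to 0.23.

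**Figure D4:**
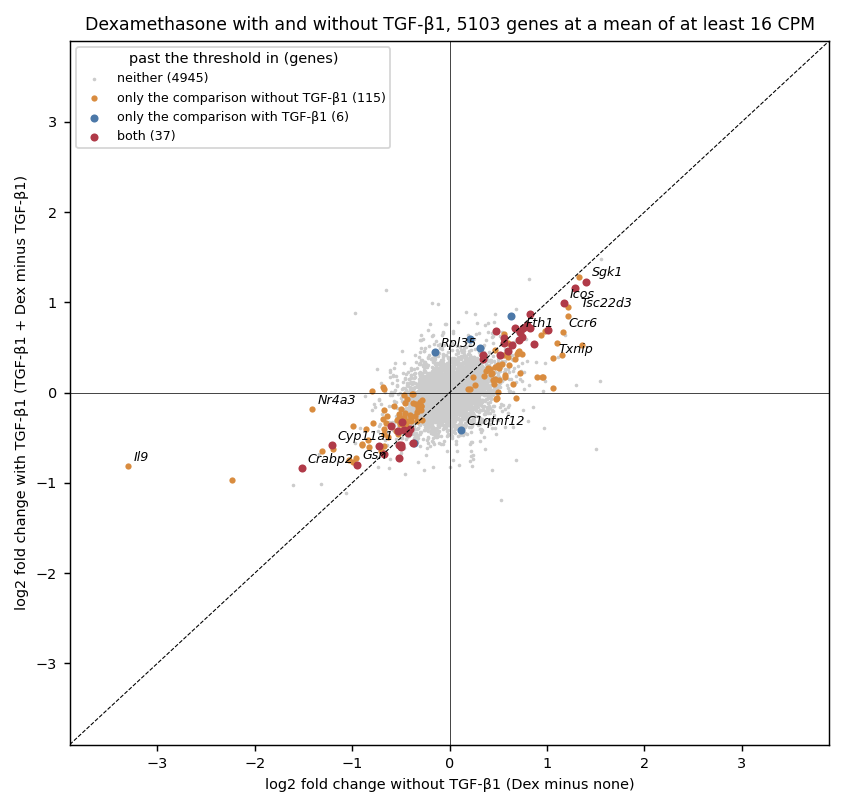
Log2 fold change of Dex with TGF-β1 against that without it, for 5103 genes at a mean of at least 16 CPM over the 6 libraries with TGF-β1, of which 3 lie outside the axes, with the line of equal change dashed. Of the genes shown in colour, 37 passed in both comparisons, 115 only without TGF-β1 and 6 only with it, and passing in one comparison alone is not a tested difference.

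The difference between the effects of Dex with and without TGF-β1 was tested as an interaction, and 0 of 10332 genes passed with edgeR. At an unadjusted p under 0.05 there were 552 (5.34%), and the smallest adjusted p was 0.0978, that of Nr4a3. DESeq2 called 6 genes (Agrp, C1qtnf12, Nr4a3, Ccl5, Rpl35 and AC144852.1) and limma voom 0. Of the 55 genes, 42 had a 95% interval of the difference that included 0, with a median width of 0.602 on the log2 scale over the 55, and 13 had an unadjusted p under 0.05. The 145 genes called without TGF-β1 and not with it are therefore not shown to respond differently. Of the 189, 179 had the same sign with TGF-β1 (94.7%) and 172 had a smaller fold change there, at a median absolute log2 fold change of 0.42 against 0.678. For the 55, the median was 0.67 with TGF-β1 and 0.626 without, and 25 were larger with TGF-β1 and 30 smaller. Each set was selected on one of the comparisons, so its values in that comparison are a description.

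Some genes with unlike effects in the 2 settings are given next, chosen with their values known, and none passed the interaction test with edgeR. Cyp11a1 fell in both settings, from 51.4 ± 4.67 to 22.1 ± 2.97 CPM without TGF-β1 (-1.21 ± 0.12) and by less with it (-0.58 ± 0.11). Its interaction was 0.63, 95% interval 0.27 to 0.98 (edgeR adjusted p = 0.74). Crabp2 fell from 134 ± 15.6 to 46.8 ± 6.8 CPM without TGF-β1, with an interaction of 0.68, 95% interval 0.27 to 1.09 (edgeR adjusted p = 0.74). Its level with Dex was 46.8 ± 6.8 CPM without TGF-β1 and 44.8 ± 6.28 CPM with it, and without Dex 134 ± 15.6 and 80.5 ± 6.9 CPM. C1qtnf12 was at 186, 187 and 179 CPM without either agent and 203, 210.4 and 184 CPM with Dex alone, with an interaction of -0.53, 95% interval -0.72 to -0.34 (edgeR adjusted p = 0.148). Ptpn3 was at 5.78 ± 0.597 and 6.61 ± 1.28 CPM in those groups, below its level with TGF-β1 alone, with an interaction of -1.54, 95% interval -2.26 to -0.83 (edgeR adjusted p = 0.498). Nr4a3, a relative of Nr4a1, fell from 33.3 ± 4.34 to 12.4 ± 1.1 CPM without TGF-β1 and was at 49.9 ± 2.66 and 43.9 ± 3.55 CPM with it. Lta, which was at 225 ± 8.28 and 173 ± 3.3 CPM without TGF-β1, fell in both settings from quite different levels, by log2 fold changes of -0.37 ± 0.057 and -0.56 ± 0.055 (interaction -0.18, 95% interval -0.35 to -0.01, edgeR adjusted p = 0.905). Icos, given for contrast, rose by 1.18 ± 0.085 without TGF-β1, from 54.5 ± 4.53 to 123 ± 7.11 CPM, with an interaction of -0.19, 95% interval -0.45 to 0.08.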

How the data were processed

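The authors deposited counts per gene for 31053 gene symbols, and RSEM 1.3.3 and mm10 are named in the submitters' processing notes. Per the labels' protocols, polyadenylated RNA was amplified by a modified SMART-Seq2 protocol, tagged with Nextera XT and sequenced paired-end, without strand, so overlapping and antisense genes cannot be told apart. All values used were whole counts, 0 columns lacked a library, and tables of the other experiments were not used.

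Counts were fitted in R 4.3.3 with edgeR 4.0.16 (filterByExpr, TMM, robust quasi-likelihood F tests) over all 12 in vitro libraries in 1 fit, with Benjamini-Hochberg adjustment over 10332 genes and a threshold of 0.05. CPM use TMM-scaled totals, and SE is the absolute log2 fold change divided by the square root of F. Gene positions come from GENCODE M21 (GRCm38), which held 10220 of the genes tested, and promoters from RefSeq. DESeq2 1.42.0 and limma 3.58.1 (voom) were alternatives, besides other scalings, filters and left-out libraries.

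Named genes were up to 15 per direction with the largest fold change among called genes at a mean of at least 16 CPM without overlap of libraries, leaving out predicted genes, receptor segments and pseudogenes. To these were added Nr3c1, Tsc22d3, Fkbp5, Il17a, Il17f, Foxp3, Il10, Ccr6 and Cyp11a1, up to 5 called members per direction of each gene list, and uncalled members at 100 CPM or more. The values of some of these genes are not reported here. Genes and lists were chosen with earlier results of these data known.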

Additional observations from a re-analysis of the deposited data

How the results depend on the processing

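None of the 55 genes called when Dex was added to TGF-β1 changed sign in any of 17 alternative fits, and 9 passed in each fit that held them: Ecm1, Fth1, Gm48942, Gsn, Icos, Neb, Plaur, Tsc22d3 and Xbp1. The count of called genes was 15 with library totals alone (11 higher and 4 lower, 73.3% higher against 58.2%), 94 with DESeq2 (51 higher and 43 lower, 48 of them shared), 22 from the 6 compared libraries alone (19 shared), 19 at an adjusted p under 0.01 and 12 at 2-fold or more, and it ranged from 24 to 35 without 1 library. It was between 49 and 77 in the other fits, including 54 with the share of repeat-like genes as a covariate, added after seeing the data. The count for Dex without TGF-β1 was 55 with library totals alone and 78 to 129 without 1 library. The interaction count of 0 became 4 with no low-count filter and 6 with DESeq2, and was 0 to 1 without 1 library, being 1 without Dex replicate 2 and 1 without replicate 2 of the group given both.

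Whether the replicate numbers in the labels pair the libraries is not stated. The deviations of same-numbered libraries correlated at 0.0572, 0.0256 and 0.00234, and those of libraries with unlike numbers at -0.0444 to 0.023. Correlations this small over all tested genes cannot decide whether the libraries were paired. With a replicate block the main count was 66 (48 shared), that of Dex without TGF-β1 211 and that of the interaction 2. Il17f, not called, reversed without TGF-β1 replicate 2 (-0.25) and without replicate 1 of the group given both (-0.21), within a range of -0.25 to 0.22 without 1 library, and with the repeat-like covariate (-0.066). Nr3c1, not called, reversed without replicate 3 of the group given both (-0.022), within a range of -0.022 to 0.39. The cause of these changes was not tested. Depth limited genes of a few CPM, such as Foxp3 and Il10. In raw counts, the chi-square per degree of freedom between libraries was 10.4 to 52.4 with both agents and 2.79 to 6.69 with TGF-β1 alone. Those counts include the repeat-like genes, and the 52.4 was between the libraries where they took 30.8% and 11.7%. The part of the repeat-like genes in this difference was not tested.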

Other observations

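Genes of adhesion and the cytoskeleton were not described above. Of 20 tested integrins and adhesion genes, 0 passed with edgeR, 4 had an unadjusted p under 0.05 (9.85% of all genes) and the median was -0.036, yet Cd44, the hyaluronan receptor and activation marker, passed with both DESeq2 and limma voom. It was singled out after its values were seen, at 97.1, 107 and 97.8 CPM with TGF-β1 alone and 55.8, 83.9 and 62.7 CPM with both (edgeR adjusted p = 0.0618). Of 15 tested annexins and S100 genes, 0 passed with edgeR, 4 had an unadjusted p under 0.05, 0 passed with limma voom, and the median was 0.0489. Vim, the intermediate filament vimentin, was at 2123, 2085 and 2009.5 CPM with TGF-β1 alone and 2511, 2309.6 and 2700.01 CPM with both (edgeR adjusted p = 0.108), and S100a10 at 561, 497 and 620.1 CPM with TGF-β1 alone and 693, 662 and 682 CPM with both (edgeR adjusted p = 0.112). Both lay higher with Dex in all 3 libraries and passed with DESeq2.

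Receptors for cytokines gave 0 called genes of 21 tested with edgeR, DESeq2 or limma voom, 3 at an unadjusted p under 0.05, and a median of 0.00441. The unadjusted counts in this paragraph stand against 9.85% of all genes tested. Il21r was at 236, 249.8 and 232 CPM with TGF-β1 alone and 208, 197 and 216 CPM with both and Il12rb1 at 123, 127 and 127 CPM with TGF-β1 alone and 99, 106 and 110.3 CPM with both. Both genes lay lower with Dex without overlap, as did 8.03% of all genes, at edgeR adjusted p values of 0.303 and 0.132. Of 16 tested TNF receptors, 0 passed with any of the 3 tools, 3 had an unadjusted p under 0.05 and the median was -0.0926, with Tnfrsf4 (OX40) at 930.4, 927 and 960.3 CPM with TGF-β1 alone and 848, 821 and 856 CPM with both (edgeR adjusted p = 0.353). Of 15 tested genes of stem-like and memory T cells, 0 passed with any of the 3 tools, 1 had an unadjusted p under 0.05 and the median was 0.0209. Lef1 overlapped between the groups at 133, 92.5 and 92.6 CPM with TGF-β1 alone and 98.6, 125 and 144 CPM with both (edgeR adjusted p = 0.767). Of 8 tested granzyme and granule genes, 0 passed with edgeR or limma voom, 3 had an unadjusted p under 0.05 and the median was -0.112. Gzmb, described above, was lower and passed with DESeq2.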
